A study of Mus musculus with 4 samples.

Results

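Kinesins are motor proteins that use ATP to move along microtubules or to take microtubules apart at their ends. The genes described here are those whose name on the array is Kif followed by a number, with or without a letter. They are 36 of the 27630 distinct gene names on the array, measured by 78 of its 41174 probes. For 7777 of all probes the name was kept as in the files, so not every name is a current symbol. They were divided by their main known work into 11 mitotic kinesins, 13 transport kinesins that carry organelles, vesicles or ciliary cargo, and 12 others.

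The cells were immature granulocytes, sorted out of bone marrow from male mice of the C57BL/6 strain; 2 samples were wild type (WT) and 2 carried a knockout of miR-223 (KO). miR-223 is a microRNA abundant in the granulocyte lineage, and the comparison asks how its loss alters the transcripts of these precursors. Each RNA was labelled with Cy3 and measured on an array of its own. The labels give no treatment or age and do not say whether the samples of a genotype came from separate animals, so the spread behind the p-values may be technical only.

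In dividing cells the mitotic kinesins build the spindle, move and align chromosomes, and drive the separation of the daughter cells, and most of their genes are transcribed in G2 phase and mitosis. Transport kinesins work throughout the life of a cell, also in cells that no longer divide. Granulocyte precursors divide during the early steps of their maturation and stop dividing before they become neutrophils. Many genes expressed in G2 and mitosis carry in their promoter a cell cycle homology region (CHR), which the MuvB complex binds, often together with CCAAT boxes, which the factor NF-Y binds.

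The promoter sequences are shown first because the sequences themselves rest on no array value. The class lists compared were, however, chosen with earlier results of these data known. RefSeq promoters (assembly GRCm38.p6, 250 bases before to 50 after each annotated start) were found for 31 of the 36 genes, the others being Kif13b, Kif20a, Kif21b, Kif5a and Kif5b. Each line gives the 100 bases from 75 before to 25 after the start, 5′ to 3′ on the gene's strand, with the CHR core TTTGAA and the CCAAT box in capitals in either orientation (reversed, these read TTCAAA and ATTGG). The 7 mitotic genes with a TTTGAA near the start come first, then Kif18a, the mitotic gene with no match, and Kif3b and Kif13a as transport genes; the genes to print were chosen after the matches were seen.
Kif11 (chr19:37376307-37376406, plus strand): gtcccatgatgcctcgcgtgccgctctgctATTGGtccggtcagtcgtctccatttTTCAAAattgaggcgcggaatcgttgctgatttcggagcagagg
Kif15 (chr9:122951006-122951105, plus strand): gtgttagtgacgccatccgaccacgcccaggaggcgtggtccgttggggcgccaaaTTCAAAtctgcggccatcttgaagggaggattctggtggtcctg
Kif18b (chr11:102925100-102925199, minus strand): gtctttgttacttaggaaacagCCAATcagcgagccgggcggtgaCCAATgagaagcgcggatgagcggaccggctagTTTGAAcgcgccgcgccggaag
Kif20b (chr19:34922283-34922382, plus strand): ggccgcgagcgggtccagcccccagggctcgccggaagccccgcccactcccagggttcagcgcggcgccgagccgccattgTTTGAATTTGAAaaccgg
Kif22 (chr7:127042396-127042495, minus strand): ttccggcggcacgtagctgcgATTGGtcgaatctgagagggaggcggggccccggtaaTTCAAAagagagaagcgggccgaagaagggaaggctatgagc
Kif23 (chr9:61946775-61946874, minus strand): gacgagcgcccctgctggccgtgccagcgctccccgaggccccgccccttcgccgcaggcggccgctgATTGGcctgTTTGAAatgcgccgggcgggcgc
Kif4 (chrX:100625990-100626089, plus strand): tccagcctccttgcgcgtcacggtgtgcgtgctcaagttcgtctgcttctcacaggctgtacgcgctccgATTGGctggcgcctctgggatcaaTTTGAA
Kif18a (chr2:109280663-109280762, plus strand): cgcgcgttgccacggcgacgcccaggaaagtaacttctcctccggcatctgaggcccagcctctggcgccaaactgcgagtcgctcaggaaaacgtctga
Kif3b (chr2:153291341-153291440, plus strand): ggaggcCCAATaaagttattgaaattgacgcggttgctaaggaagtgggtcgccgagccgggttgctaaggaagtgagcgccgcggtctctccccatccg
Kif13a (chr13:46929694-46929793, minus strand): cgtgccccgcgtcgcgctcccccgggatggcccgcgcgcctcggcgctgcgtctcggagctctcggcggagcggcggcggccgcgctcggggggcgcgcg

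TTTGAA occurred, on either strand of the 300 bases, in 9 of 10 mitotic kinesin genes, in 1 of 10 transport kinesin genes (Kif1a) and in 2 of 11 others (Kif26b and Kif27). Over all promoters in the table the share was 17.9%, and over all genes, several of which have more than 1 promoter, it was 20.2%. A window from 30 bases before to 25 after the start was chosen after the positions were seen. TTTGAA lay wholly within it in 7 of 10 mitotic genes, 0 of 10 transport genes and 1 of 11 others. This held for 2.72% of all promoters and 3.17% of all genes. CCAAT occurred in 6 of 10 mitotic, 3 of 10 transport and 5 of 11 other genes, against 37.4% of all promoters and 41.1% of all genes. Both motifs stood together in 6 of 10 mitotic genes (Kif11, Kif14, Kif18b, Kif22, Kif23 and Kif4) and in 0 of 10 transport genes. They did so in 2 of 11 others (Kif26b and Kif27), against 6.95% of all promoters and 7.97% of all genes. No match of 1 motif overlapped a match of the other. A match describes the sequence and is not a measured binding site.

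**Figure D1:**
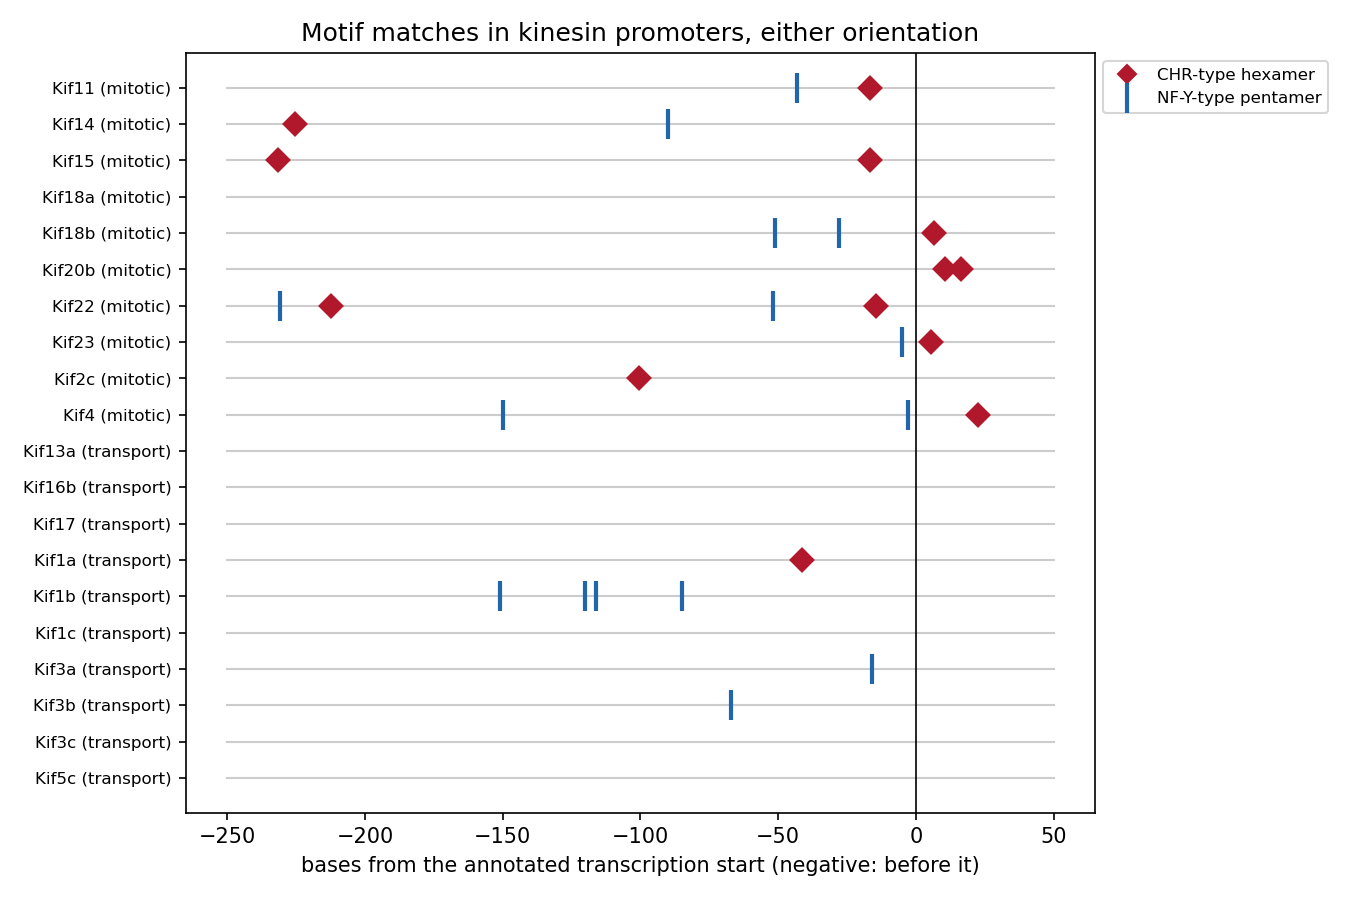
Positions of CHR-type hexamers (red diamonds) and NF-Y-type pentamers (blue bars) in the promoters of 10 mitotic and 10 transport kinesin genes, all promoters of a gene on 1 line. The horizontal axis is the distance in bases from the annotated start; the diamonds of 7 mitotic genes lie within 30 bases before and 25 after it, and no transport gene has one there.

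The mature microRNA removed in the KO mice is shown with its seed, bases 2 to 8, in capitals (RefSeq, GRCm38.p6, chrX:96242884-96242905, plus strand).
miR-223-3p: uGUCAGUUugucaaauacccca
The probes that measured the kinesins are 60 bases of each transcript. A site matching the seed occurred in 0 of the 78 kinesin probes, both as the longest form AACTGACA and as its 6-base core ACTGAC. Over all probes these forms occurred in 0.136% and 1.41%. The probes cover only a small stretch of each transcript, so this count says nothing about sites elsewhere in it.

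On the 4 arrays 59.6% to 62.9% of spots were well above background, with 0 saturated; the signal at the 75th percentile was 314 and 310 for the WT arrays, 361 and 422 for the KO arrays. Levels below are log2 processed signals minus that percentile of their array, so that 0 is a signal at the 75th percentile, and a difference is the KO mean minus the WT mean. Pearson's r over the 16978 genes tested, each read from 1 probe as set out next, was 0.994 between WT replicates, 0.994 between KO replicates and 0.988 to 0.990 between genotypes. A gene was read from its brightest probe among those above background on at least 2 arrays, which left 28 of the 36 kinesins: 11 mitotic, 11 transport and 6 others. With 2 arrays against 2 an exact permutation test cannot pass the threshold of 0.05, and the tests below are limma's, with Benjamini-Hochberg adjustment over 16978 genes.

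All 11 mitotic kinesins had a lower mean in the KO arrays, with differences from -0.86 to -0.33 and a median of -0.67, beside a median of -0.017 over all genes tested. In 10 of the 11, all but Kif15, both KO arrays lay below both WT arrays, which held for 30.5% of all genes tested. With normexp background correction fitted on all spots the mitotic median was -0.40, beside -0.15 over all genes, and the count was 6 of 11. Under that setting Kif20a (-0.0029 ± 0.37), Kif23 (-0.0049 ± 0.36), Kif4 (-0.14 ± 0.37), Kif15 (-0.19 ± 0.35) and Kif22 (-0.35 ± 0.41) lay within their SE of 0. Of these, Kif20a, Kif23 and Kif4 also lay above the median of all genes. Kif11 was at -0.56 ± 0.35, and 0 of the 11 passed limma's adjusted threshold there. Without that correction none of the 11 reached a limma adjusted p under 0.05 either, and neither did any gene on the array (0% of 16978, smallest adjusted p = 0.0838). At an unadjusted p under 0.05, 10 of the 11 were lower in KO, against 12% of all genes. With an intensity trend in limma's variance prior, an alternative analysis, 9 of the 11 passed the adjusted threshold as lower in KO, against 4.13% of all genes. The 2 that did not were Kif23 (adjusted p = 0.0577) and Kif15 (adjusted p = 0.274). Relative to the mean of the WT arrays, the median mitotic kinesin stood at 0.068 and -0.068 on the WT arrays and at -0.68 and -0.65 on the KO arrays.

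**Figure D2:**
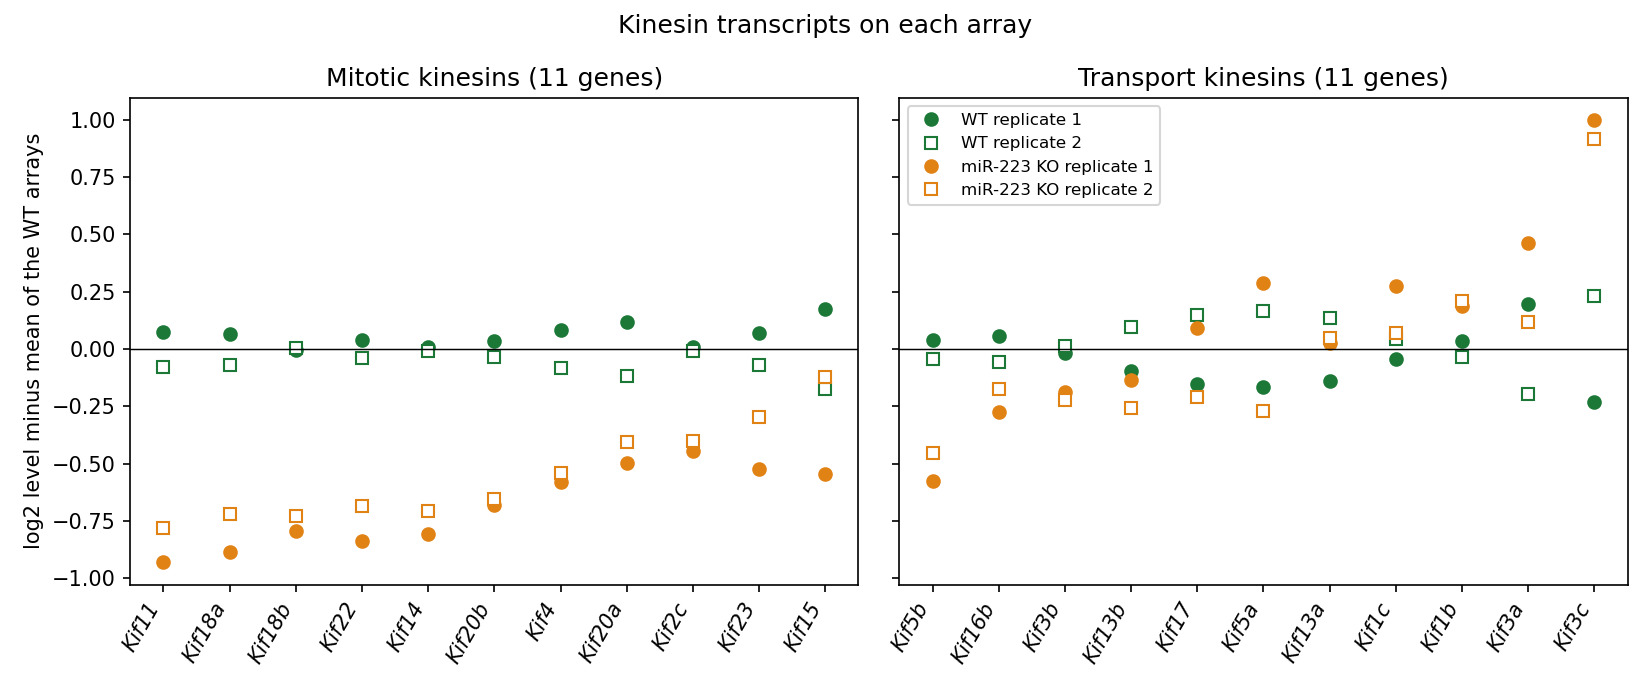
Log2 level of each kinesin on each array minus the mean of the 2 WT arrays, for 11 mitotic kinesins (left) and 11 transport kinesins (right), green for WT and orange for KO, circles for replicate 1 and squares for replicate 2. The KO points lie below both WT points in 10 mitotic kinesins, all but Kif15, and in 4 transport kinesins.

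Among the motors that shape the spindle, Kif11 (Eg5), which pushes the spindle poles apart, had log2 levels of 1.52 and 1.37 on the WT arrays and 0.52 and 0.67 on the KO arrays. The KO mean was 55.3% of the WT mean (difference -0.86 ± 0.11 SE, n = 2 against 2, limma adjusted p = 0.0875), the largest difference in the class on the brightest probe. Its 3 probes, of which the brightest lies at chr19:37495755-37495814 (mm9), gave -0.86, -0.94 and -0.94. Kif15, which can back up Kif11 in holding the spindle bipolar, was at 0.56 and 0.21 on the WT arrays and -0.16 and 0.26 on the KO arrays. Its groups overlapped, KO replicate 2 lying above WT replicate 2, and the difference was -0.33 ± 0.21 (adjusted p = 0.403). Single arrays moved it: it was -0.16 without WT replicate 1, -0.51 without WT replicate 2, -0.12 without KO replicate 1 and -0.54 without KO replicate 2. The other Kif15 probes did not overlap. The probe at chr9:122880853-122884774 (mm9) differed by -0.90. The probe at chr9:122869947-122870006 was above background in WT and not well above background in KO, with WT at least 3.23-fold higher; this bound sets the WT mean against the lowest signal that counted as above background on each KO array.

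Kif2c (MCAK), which depolymerises microtubules at kinetochores, was at -0.26 and -0.27 on the WT arrays and -0.71 and -0.67 on the KO arrays. Both KO arrays were lower, with replicates of a genotype within 0.045 of each other, and the difference was -0.42 ± 0.079 (adjusted p = 0.108). Kif18a, which dampens chromosome movements at the spindle equator, was at -0.020 and -0.16 on the WT arrays and -0.97 and -0.81 on the KO arrays. The KO mean was 57.3% of WT (difference -0.80 ± 0.11, adjusted p = 0.0896), and its second probe was above background on no array. Kif18b, which shortens astral microtubules, was at 0.67 and 0.68 on the WT arrays and -0.12 and -0.055 on the KO arrays. The WT replicates were nearly equal and the KO arrays clearly apart from them, a difference of -0.76 ± 0.080 (adjusted p = 0.0859).

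The chromokinesins, which bind chromosome arms, gave the same direction. Kif22 (Kid), which pushes chromosomes away from the poles, was at 5.07 and 4.99 on the WT arrays and 4.19 and 4.35 on the KO arrays. The KO mean was 59.1% of WT, with a difference of -0.76 ± 0.099 (limma adjusted p = 0.0875). Kif4, which also organises the central spindle with Prc1, was at 2.71 and 2.55 on the WT arrays and 2.05 and 2.09 on the KO arrays. The groups did not overlap, with a difference of -0.56 ± 0.099 (adjusted p = 0.103). Its second probe, which overlaps the first in position, differed by -0.48.

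The kinesins of the central spindle and of cytokinesis were lower as well. Kif14, which brings citron kinase to the midbody, was at 1.08 and 1.06 on the WT arrays and 0.26 and 0.36 on the KO arrays. This was a difference of -0.76 ± 0.086 (limma adjusted p = 0.0859), and the second probe gave -0.87. Kif20a (MKLP2), which carries the chromosomal passenger complex to the central spindle, was at 3.90 and 3.66 on the WT arrays and 3.28 and 3.38 on the KO arrays. The gap between the genotypes was larger than the distance between the WT replicates, and the difference was -0.45 ± 0.12 (adjusted p = 0.146), with -0.47 on its other probe, which overlaps the first. With normexp on all spots the Kif20a difference was -0.0029 ± 0.37. Kif20b, needed for the last steps of cytokinesis, was at 0.44 and 0.37 on the WT arrays and -0.27 and -0.25 on the KO arrays. The difference was -0.67 ± 0.082 (adjusted p = 0.0875), and its other probes gave -0.54 and -0.56. Kif23 (MKLP1), the motor of the centralspindlin complex, was at 2.16 and 2.02 on the WT arrays and 1.57 and 1.79 on the KO arrays. The KO levels were lower, KO replicate 1 more so, with a difference of -0.41 ± 0.12 (adjusted p = 0.171), and its other probes gave -0.34 and -1.05. For Kif23 the difference was -0.0049 ± 0.36 with normexp on all spots and -0.29 with normexp without control spots.

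Over single probes, 22 of the 23 probes of mitotic kinesins were above background on at least 2 arrays. Both KO arrays lay below both WT arrays on 21 of these 22 (95.5%), against 32.8% of the 25749 such probes on the array. Their differences ran from -2.40 to -0.33 with a median of -0.71. The lowest value came from a Kif15 probe that was above background on the WT arrays only. This probe passed the filter through WT alone, so its direction followed from the filter and adds nothing to the count. Probes of 1 gene measure 1 transcript in the same RNA and are not independent. The Kif11 and Kif14 probes were close to each other, whereas those of Kif15 and Kif23 differed in size though not in direction.

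**Figure D3:**
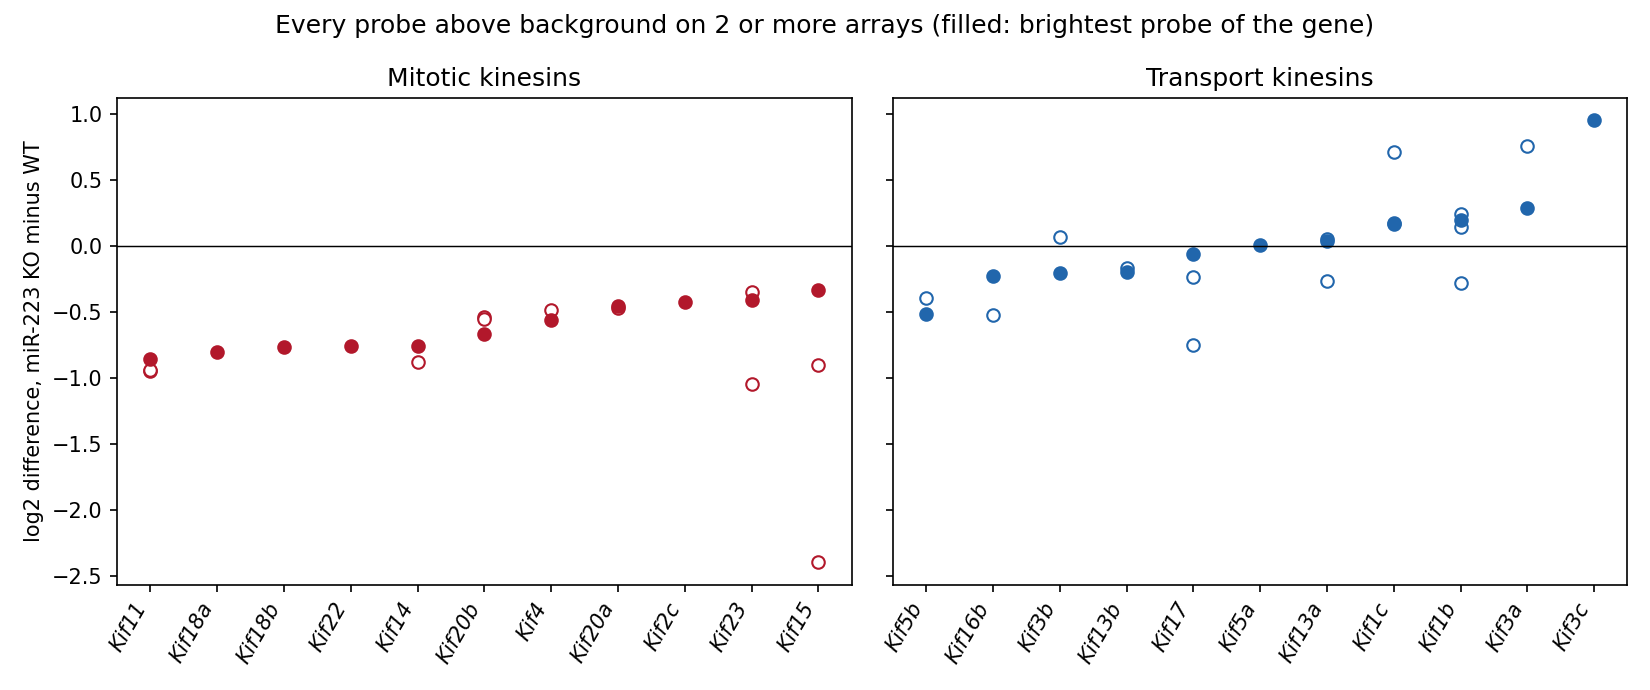
Log2 difference (KO minus WT) on every probe above background on at least 2 arrays, by gene, with the brightest probe of each gene filled. All probes of mitotic kinesins (left) lie below 0, the lowest being the Kif15 probe that was not well above background in KO; probes of transport kinesins (right) lie on both sides.

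The transport kinesins showed no common direction. Of the 11 measured, 6 had a higher and 5 a lower mean in KO, with a median difference of 0.0088 and a range from -0.51 to 0.96, but this split depended on the background correction: the KO mean was lower in 10 of the 11 with normexp on all spots, where Kif1c, Kif3a, Kif3c, Kif5a and Kif13a reversed, and in 8 with normexp without control spots. Both KO arrays lay below both WT arrays in 4 (Kif5b, Kif3b, Kif16b and Kif13b), against 30.5% of all genes. They lay above in 3 (Kif3c, Kif1b and Kif1c), against 28% of all genes, and overlapped in 4. At an unadjusted limma p under 0.05, 1 was lower (Kif5b, against 12% of all genes) and 1 higher (Kif3c, against 11.8% of all genes). With the intensity trend Kif5b passed as lower, against 4.13% of all genes, and none as higher, against 5.45%. The mitotic median minus the transport median was -0.67. This gap depended on the background correction: it was -0.060 with normexp fitted on all spots, control spots included, and -0.52 with normexp fitted without them. On WT replicate 1 the lowest control spot has a mean signal minus local background of -29869, and its part in this was not tested. The gap was -0.47 without WT replicate 1 and -0.48 without KO replicate 1, where the transport median moved to -0.16 and -0.18.

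Kif5b, the heavy chain of conventional kinesin in most tissues, was the transport kinesin with the lowest value. Its levels were 4.63 and 4.55 on the WT arrays and 4.01 and 4.14 on the KO arrays. The KO mean was 70.0% of WT, a difference of -0.51 ± 0.094 (limma adjusted p = 0.106, and 0.0164 with the intensity trend), and the second probe gave -0.39. The related heavy chain Kif5a, best known from neurons, was at -3.07 and -2.74 on the WT arrays and -2.62 and -3.18 on the KO arrays. Its groups overlapped, with a difference of 0.0088 ± 0.25 (adjusted p = 0.987). Kif5c was not above background on any array, nor was Kif1a, which carries synaptic vesicle precursors.

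Of the kinesin-2 motors, which serve cilia and membrane traffic, Kif3a was at -3.10 and -3.49 on the WT arrays and -2.83 and -3.18 on the KO arrays. The groups overlapped on this probe (0.29 ± 0.20, limma adjusted p = 0.439), while on its dimmer probe both KO arrays were higher (0.76). Kif3b, its partner, was at 0.44 and 0.47 on the WT arrays and 0.26 and 0.23 on the KO arrays. KO was slightly lower on both arrays (-0.21 ± 0.079, adjusted p = 0.229), and its second probe overlapped at 0.068. Kif3c, which can replace Kif3b as partner, was at -5.11 and -4.64 on the WT arrays and -3.87 and -3.96 on the KO arrays. It was the transport kinesin with the highest value (0.96 ± 0.19, adjusted p = 0.112), but its probe was dim, above background on 1 of the 2 WT arrays, and it reversed to -0.95 with normexp on all spots and to -0.013 with normexp without control spots. Kif17 was at -4.41 and -4.11 on the WT arrays and -4.17 and -4.47 on the KO arrays. Its brightest probe overlapped (-0.059 ± 0.17, adjusted p = 0.851); on 1 of its other probes, not well above background in KO, WT was at least 1.61-fold higher.

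Of the kinesin-3 motors, Kif1b, which carries mitochondria or vesicles depending on its splice form, was at 1.97 and 1.90 on the WT arrays and 2.13 and 2.15 on the KO arrays. KO was higher on both arrays (0.20 ± 0.082, limma adjusted p = 0.246), but its 4 probes did not share a direction, with 0.20, 0.25, 0.14 and -0.28. Kif1c, which carries dense core vesicles, was at -1.57 and -1.49 on the WT arrays and -1.25 and -1.46 on the KO arrays. The KO arrays were above WT by a small margin (0.17 ± 0.11, adjusted p = 0.408), and on a probe not well above background in WT, KO was at least 1.54-fold higher. Kif13a was at -0.95 and -0.67 on the WT arrays and -0.78 and -0.76 on the KO arrays. Its KO values lay between those of WT (0.038 ± 0.13, adjusted p = 0.873), while of its other probes 1 overlapped at 0.051 and on 1 both KO arrays were below WT (-0.26).

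Kif13b was at 0.34 and 0.54 on the WT arrays and 0.31 and 0.19 on the KO arrays. The KO arrays were lower by an amount close to the distance between the WT replicates (-0.20 ± 0.11, limma adjusted p = 0.364). Kif16b, which moves early endosomes, was at -1.21 and -1.32 on the WT arrays and -1.53 and -1.44 on the KO arrays. KO was lower on both arrays there (-0.22 ± 0.094, adjusted p = 0.254) and on its second probe (-0.52). Over the 25 transport probes above background on at least 2 arrays, KO lay below WT on 10 (40%), against 32.8% of all such probes on the array. KO lay above WT on 7, against 6765 of all 25749 such probes, and overlapped on 8. The 10 include a Kif17 probe above background in WT only, and the 7 a Kif1c probe above background in KO only. For both probes the direction followed from the filter.

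**Figure D4:**
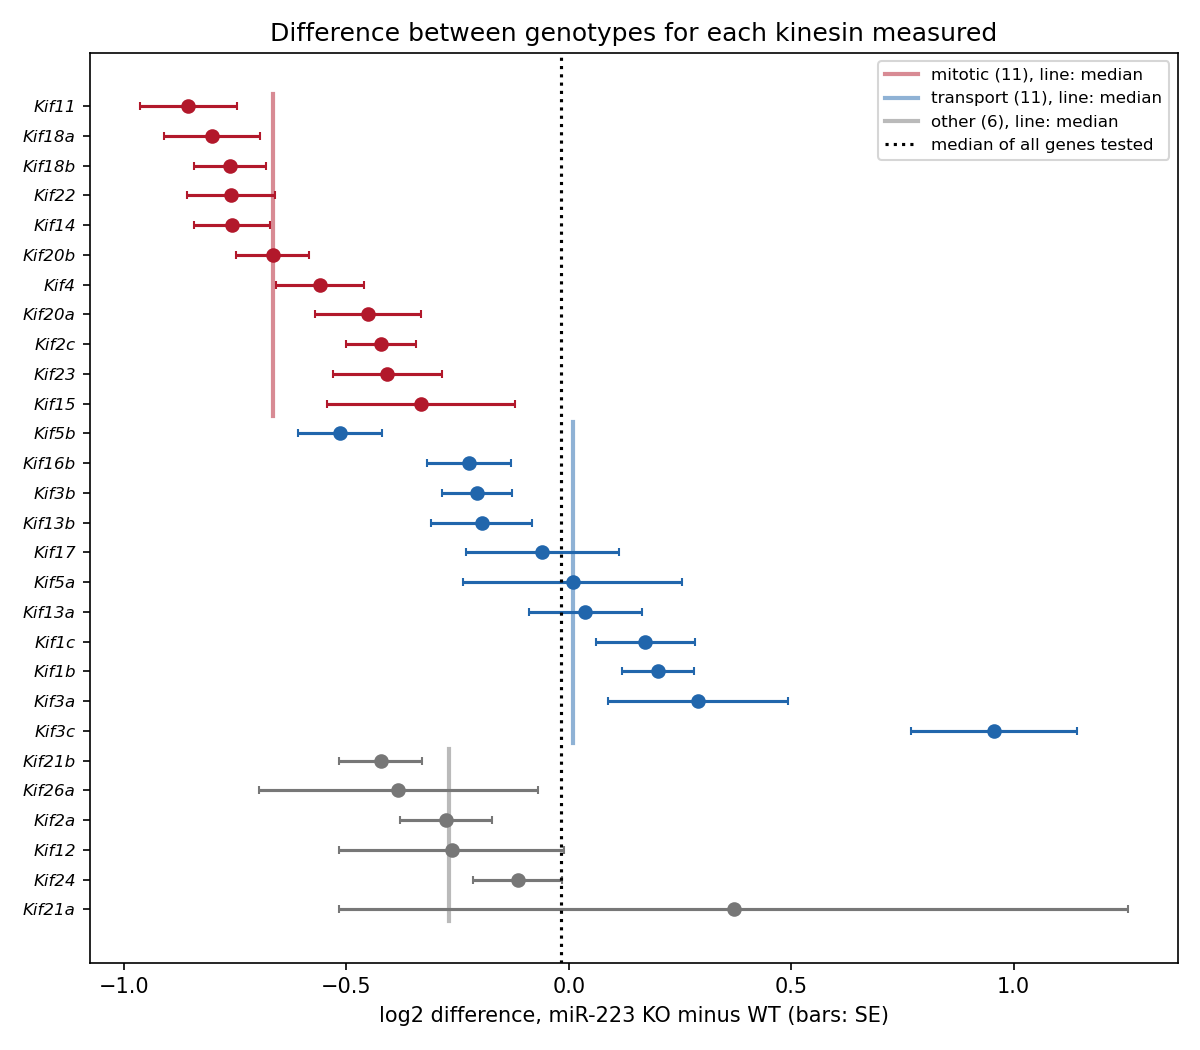
Log2 difference (KO minus WT) with its limma standard error for the 28 kinesins measured, 11 mitotic (red), 11 transport (blue) and 6 others (grey), with the median of each class as a vertical line and the median of all genes as a dotted line. The class medians are -0.67, 0.0088 and -0.27.

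Of the 12 other kinesins 6 were measured, with a median difference of -0.27. Kif21b, a motor that also restrains microtubule growth, was at 5.41 and 5.34 on the WT arrays and 4.89 and 5.01 on the KO arrays. The genotypes did not overlap (-0.42 ± 0.092, limma adjusted p = 0.121, and 0.0250 with the intensity trend). Of its other probes 1 gave -0.43 and 1 overlapped at -0.068, and with normexp on all spots Kif21b reversed to 0.11. Kif2a, a depolymerase of spindle poles and neurons, was at 0.98 and 1.01 on the WT arrays and 0.63 and 0.82 on the KO arrays. The KO arrays were lower on this probe (-0.28 ± 0.10, adjusted p = 0.224) and on its other probes (-0.42 and -0.59). Kif24, Kif26a, Kif12 and Kif21a overlapped between genotypes on their brightest probe, with differences of -0.12 ± 0.10, -0.38 ± 0.31, -0.26 ± 0.25 and 0.37 ± 0.89; Kif21a was above background on 1 array of each genotype only. On the second Kif24 probe both KO arrays were below WT (-0.39). Kif2b, Kif6, Kif7, Kif9, Kif26b and Kif27 were not above background on at least 2 arrays. Over all 28 kinesins 16 had both KO arrays below WT, against 30.5% of all genes, and 3 above, against 28%, and the median was -0.30.

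Motors outside the name rule lay on both sides of 0. Cenpe, the kinetochore kinesin that aligns chromosomes, was at 4.62 and 4.53 on the WT arrays and 4.14 and 4.22 on the KO arrays. Both KO arrays were lower (-0.39 ± 0.088, limma adjusted p = 0.123). Kifc1, the minus-end motor that focuses spindle poles, was at 3.64 and 3.58 on the WT arrays and 2.93 and 1.81 on the KO arrays. Both KO arrays were lower but far apart (-1.24 ± 0.41, adjusted p = 0.194), and the near-identical Kifc5b, whose probe may share its signal, gave -1.17 ± 0.42. The other C-terminal motors Kifc2 and Kifc3 had higher KO values (0.54 ± 0.12 and 0.59 ± 0.21, adjusted p = 0.120 and 0.205).

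Transcripts of proteins that mitotic kinesins bind or answer to at the spindle had a median log2 difference of -0.54 over 18 genes. The KO mean was the lower one in all 18, with 0 past limma's adjusted threshold, against 0% of all genes. At an unadjusted limma p under 0.05, 13 were lower, against 12% of all genes. Mapre1 overlapped between genotypes (-0.11 ± 0.10). Both KO arrays lay below WT in 17, against 30.5% of all genes. With the intensity trend in limma 13 of the 18 passed as lower, against 4.13%. The 4 with the smallest p gave log2 differences of Cdca8 -0.67, Plk1 -0.77, Anln -0.67 and Birc5 -0.61. Cdca8 and Birc5 belong to the chromosomal passenger complex, Plk1 is a mitotic kinase and Anln a scaffold of the cleavage furrow. Racgap1, which forms centralspindlin with Kif23, gave -0.46 ± 0.20, and Prc1, the partner of Kif4, -0.87 ± 0.14; these partners were named for the motors above, outside the naming rule.

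Cell cycle markers had a median log2 difference of -0.43 over 14 genes. Both KO arrays lay below WT in 13, against 30.5% of all genes, and above, against 28%, in 1, Rrm2, a subunit of ribonucleotide reductase (0.38 ± 0.094). The smallest p belonged to Foxm1 -0.95, Top2a -0.80, Cdc20 -0.52 and Mki67 -0.47, of which Foxm1 encodes a transcription factor of G2 genes, Top2a a topoisomerase, Cdc20 an activator of the anaphase-promoting complex and Mki67 the Ki-67 protein. In bulk RNA, fewer cells in G2 and mitosis and less of these transcripts per cell cannot be told apart.

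Light chains, adaptors and other partners of transport kinesins had a median log2 difference of 0.094 over the 17 measured, with KO below WT in 4 (30.5% of all genes), above in 8 (28% of all genes) and overlapping in 5. The smallest p belonged to Mapk8ip3 -0.28, Klc4 0.24, Spag9 0.24 and Arl8a -0.27. Klc4 is a kinesin light chain, Mapk8ip3 and Spag9 are adaptors between kinesin and cargo, and Arl8a is a lysosomal GTPase. For cytoplasmic dynein, the motor of the opposite direction, and dynactin the median was 0.037 over 19 genes, with KO below WT in 5 and above in 4, beside the same shares of 30.5% and 28% over all genes. Dynlt3, a dynein light chain, had the smallest p, with 0.67 ± 0.085 (limma adjusted p = 0.0875), followed by Dynlt1b -0.27, Bicd2 -0.23 and Ndel1 -0.25. The tubulins, most of them subunits of the tracks, had a median of -0.22 over 12 genes, with KO below WT in 8, against 30.5% of all genes, and above in 3, against 28%. Their smallest p belonged to Tuba1a 0.40, Tubg1 -0.33, Tuba8 0.48 and Tubb5 -0.31.

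Markers of cell types were read beside the mitotic kinesins. The granulocyte markers were bright on all arrays, with a median log2 difference of 0.050 over 11 genes and summed levels (linear signal relative to the 75th percentile) of 5905 and 6455 in WT and 6230 and 5519 in KO. Among the 11, KO lay below WT in 3, against 30.5% of all genes, above in 4, against 28%, and overlapped in 4. The smallest p of these markers belonged to the granule proteases Prtn3 0.72, Ctsg 0.63 and Elane 0.50, all higher in KO, and S100a9 (-0.20).

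Monocyte markers were higher on both KO arrays in 10 of 10 genes, against 28% of all genes, with a median of 0.74 and summed levels of 143 and 145 for the WT arrays, 212 and 198 for the KO arrays. The smallest p belonged to Ccr2 0.82, F13a1 0.71, Adgre1 0.97 and Klf4 0.87. Erythroid markers were lower on both KO arrays in 5 of the 6 measured, against 30.5% of all genes, with a median of -0.66 and summed levels of 48.3 and 46.7 for the WT arrays, 35.7 and 27.8 for the KO arrays. The smallest p belonged to Slc4a1 -0.62, Epor -0.75, Hba-a1 -0.61 and Alas2 -0.82, while the defining erythroid genes Gata1 and Klf1 were not above background on at least 2 arrays.

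Lymphoid markers had a median of -0.17 over 9 genes. KO lay below WT in 2, against 30.5% of all genes, above in 1, against 28%, and overlapped in 6. Summed levels were 46.4 and 47.4 for the WT arrays, 55.4 and 46.4 for the KO arrays. Those with the smallest p were Cd3d -1.43, Vpreb1 -0.39, Cd79b 0.46 and Cd79a -0.50, of which Cd79a overlapped between genotypes. Cd3e (-0.22) and Cd3g (0.37) overlapped as well, so neither showed the separation seen for Cd3d. Ebf1 was not above background on at least 2 arrays. Stem and progenitor markers had a median of 0.25 over 8 genes, with KO above WT in 3, against 28% of all genes, and overlapping in 5, and summed levels of 47.1 and 49.5 in WT and 62.6 and 62.9 in KO (Cd34 0.89, Ly6a 0.46, Gata2 0.36 and Hoxa9 0.37; Mecom not above background on at least 2 arrays). The part of these cell types in the kinesin differences was not tested.

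**Figure D5:**
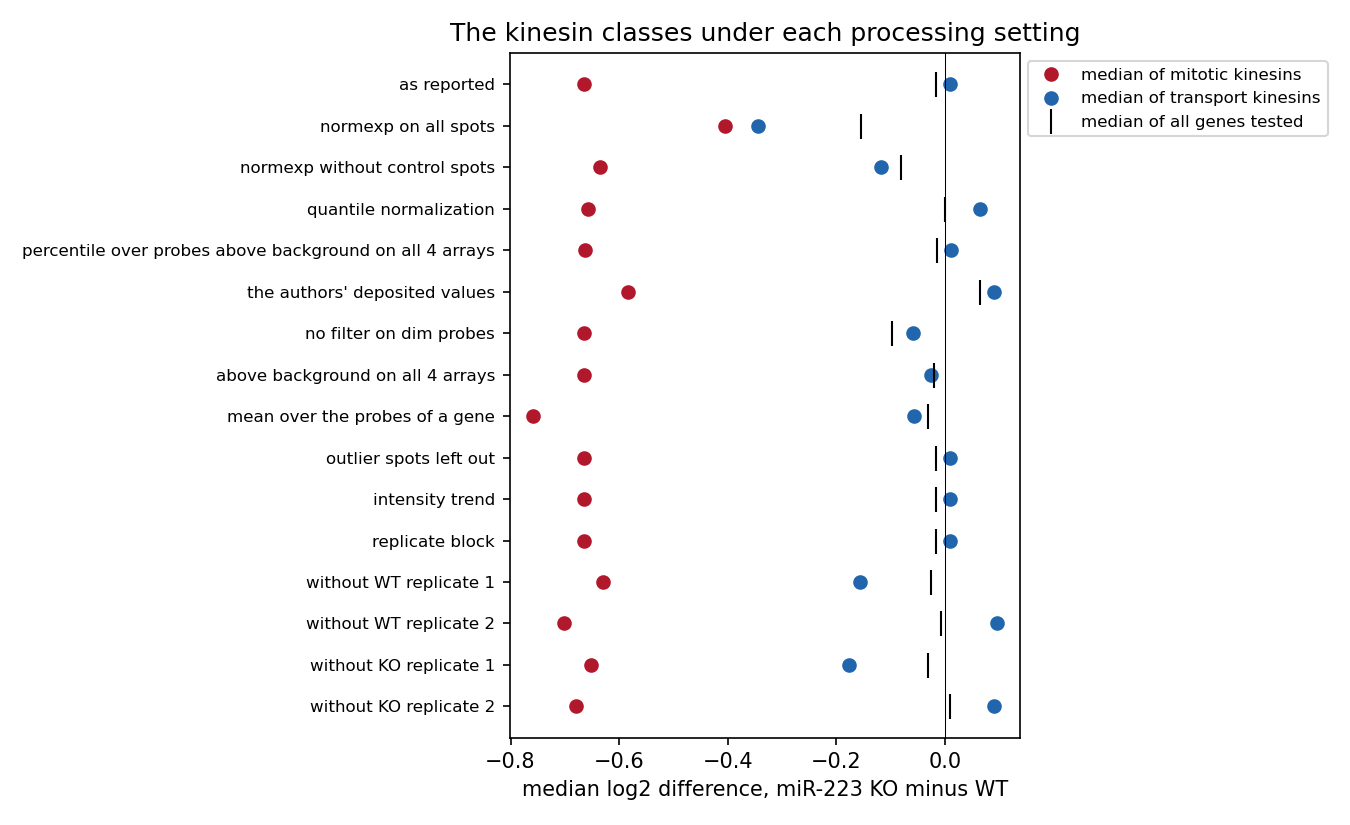
Median log2 difference (KO minus WT) of mitotic kinesins (red), transport kinesins (blue) and all genes tested (black bars) as reported and under 15 other settings. The mitotic median lies between -0.76 and -0.40, and with normexp on all spots the transport median (-0.35) lies close to it.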

How the data were processed

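Per the labels, total RNA of sorted immature granulocytes (2 WT and 2 KO samples) was labelled with Cy3 and hybridised in 1 colour. Per the file headers, the authors read the scans with Agilent Feature Extraction 10.5.1.1, and the deposited intensity of a spot is the processed signal after background subtraction, with no scaling across arrays; probe positions are on mm9. The value table deposited by the authors is in log2, and followed the log2 processed signal (lowest r 0.9999) with column medians of 4.68 to 4.69, from which its scale and centring were inferred.

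Here log2 processed signals had the 75th percentile of each array over non-control spots subtracted, spots of a probe were averaged, and 25749 of 41174 probes were kept, those well above background on 2 or more arrays. Each gene was its brightest such probe. Names were updated through RefSeq (26933 probes by accession, 894 by synonym, 5570 already current, 7777 kept as in the files); this changed 0 of the 78 kinesin probes. Genotypes were compared with limma 3.58.1 in R 4.3.3 (lmFit, eBayes, prior degrees of freedom 1.83), checked on simulated data. Same-numbered replicates were not shown to be paired (the deviations of WT 1 and KO 1 correlated at r = 0.039, with 2 pairs only), so no block was used. The members and lists were chosen with earlier results of these data known. Every measured mitotic and transport kinesin is described, and of each partner or marker list the 4 genes with the smallest p, with Kifc1 and Cenpe always; some marker genes are not reported here. Alternatives changed background correction, scaling, filters, the probe of a gene, the variance prior, the pairing, the class lists and the arrays included.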

Additional observations from a re-analysis of the deposited data

How the results depend on the processing

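The sign of all 11 mitotic kinesins was negative under each background, scaling, filter, probe, trend, replicate block and leave-one-out alternative, but with normexp on all spots Kif20a (-0.0029) and Kif23 (-0.0049) were near 0. Kif15 ran from -0.54 to -0.12 with 1 array left out at a time and was -1.21 with probes averaged per gene. That average includes the Kif15 probe at -2.40, which was above background on the WT arrays only. The mitotic median was -0.40 with normexp on all spots, -0.58 with the authors' deposited values, -0.76 with probes averaged per gene, and -0.61 with Kif2a and Kif2b counted as mitotic. Leaving out 1 array at a time gave -0.70 to -0.63 for the mitotic median, -0.18 to 0.095 for the transport median and -0.80 to -0.47 for their gap. Normexp on all spots, which moved the median of all genes to -0.15, gave a transport median of -0.35, a gap of -0.060 and 6 mitotic kinesins lower on both KO arrays; on WT replicate 1 the lowest control spot has a mean signal minus local background of -29869, and normexp without control spots gave a transport median of -0.12 and a gap of -0.52. The part of that spot in the difference was not tested.

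The number of genes past the threshold in limma was 1627 with the intensity trend (9 mitotic, 1 transport), 1873 with normexp without control spots (8 mitotic, 1 transport), 125 with probes above background on all 4 arrays, 61 with the authors' deposited values and 4 with quantile normalization, against 0 as reported; in the last 3 no mitotic or transport kinesin passed. With the replicate block it was 0, as it was without each array in turn.

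Reversed signs, 21 single-gene values, concerned no mitotic kinesin. With normexp on all spots they were Kif13a -0.24, Kif1c -0.35, Kif21a -1.22, Kif21b 0.11, Kif3a -0.77, Kif3c -0.95 and Kif5a -0.81. With normexp without control spots they were Kif21a -0.24, Kif3a -0.045, Kif3c -0.013 and Kif5a -0.12. Kif17 gave 0.014 with quantile normalization and 0.022 with the deposited values, and Kif13a -0.058 with the mean over probes. Without WT replicate 1 they were Kif13a -0.10, Kif21a -0.77 and Kif5a -0.16, without WT replicate 2 Kif17 0.091, without KO replicate 1 Kif21a -0.077 and Kif5a -0.27, and without KO replicate 2 Kif17 0.091; over the 4 arrays left out in turn Kif13a ran from -0.10 to 0.18, Kif17 from -0.21 to 0.091, Kif21a from -0.77 to 1.51 and Kif5a from -0.27 to 0.29. The causes were not tested. Dim probes, such as those of Kif3c, Kif17 and Kif21a, limit what can be read.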
